A study of Arabidopsis thaliana with 12 samples.

Results

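The class III peroxidases of Arabidopsis thaliana were followed through 12 arrays of dark-grown seedlings. The family list held 60 genes, matched by locus number. Of these, 49 had a probe set annotated with that gene alone, 1 probe set each. A further 5 were found only in probe sets shared by several genes and 6 in none of the annotated ones, and these 11 were not analysed here. The 49 measured genes lay on all 5 chromosomes, with 8 on chromosome 1, 9 on chromosome 2, 6 on chromosome 3, 10 on chromosome 4 and 16 on chromosome 5. The whole table held 22746 probe sets, of which 13436 carried 1 gene with a locus number.

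Class III peroxidases are secreted haem enzymes of plants that act in the cell wall and the vacuole. They use hydrogen peroxide to oxidise phenolic compounds, which couples lignin precursors and cross-links wall proteins and stiffens the wall, and in another reaction cycle they release reactive oxygen species that can cleave wall polysaccharides. In seedlings, members of the family are known from root hairs, from lignifying vessels and from defence against microbes. Ethylene shortens and thickens the dark-grown hypocotyl and promotes root hairs.

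The 6 groups were ein2 in ethylene, ein2 in air, ein5 in ethylene, ein5 in air, wild type in ethylene and wild type in air, with 2 arrays each. All plants were etiolated seedlings of the Columbia accession (Col-0), and the mutants carried the alleles ein2-5 and ein5-1, 1 allele per gene. EIN2 is a membrane protein that carries the ethylene signal onward, and EIN5 is a cytoplasmic exoribonuclease that degrades RNA from its 5′ end. The ethylene groups had received 10 ppm of the gas for 4 h while the others stayed in air. The labels of ein2 air 1 and the series text give 3 days in the dark at 24 °C, those of the other 11 arrays 5 days at 25 °C, and the extraction protocol names mature leaves. Both arrays of a group carry separate sample labels, but no label names separate cultures behind them. The p-values therefore cover the spread between arrays, which may be technical alone. EIN2 and EIN5 themselves were not analysed here, so the genotype labels were not checked on those genes.

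Levels are given as scaled intensities, the deposited intensities after each array was brought to a common median. A level belongs to its own probe set, so that a brighter probe set does not show a more abundant transcript. Changes are log2 differences of group means with their standard error, and a level of a group is its mean ± SD over its arrays (n = 2). A gene was called where limma's adjusted p (Benjamini-Hochberg over all 22746 probe sets) was under 0.05. The deposited medians of the arrays lay between 922 and 1039, and the correlation between the 2 arrays of a group over all probe sets between 0.960 and 0.975. The wild-type pairs were the less alike for the peroxidases. Their median difference between the 2 arrays was 0.47 on the log2 scale in wild-type ethylene and 0.39 in wild-type air, against 0.15 to 0.24 in the 4 mutant groups. Wild-type ethylene 1 was the brighter array of its pair for 13 of the 49 genes, and wild-type air 1 for 35 of 49. The ein5 pairs were similarly uneven in this count, with ein5 ethylene 1 brighter for 14 of 49 and ein5 air 1 for 35. Over all probe sets, array 1 was brighter for 36.9% in wild-type ethylene and 49.0% in wild-type air. These shares were 49.8% in ein5 ethylene and 48.9% in ein5 air. In whole seedlings, a change in the number of cells of a type cannot be told apart from a change of RNA per cell.

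Over the 9 comparisons made, 24 of the 49 genes were called at least once and 25 never, beside 19.6% of all probe sets called at least once. In the plot of all arrays, the 3 genes with the largest rises stand out in ethylene in every genotype, and PRX52 stands out in ein2 in both gases.

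**Figure D1:**
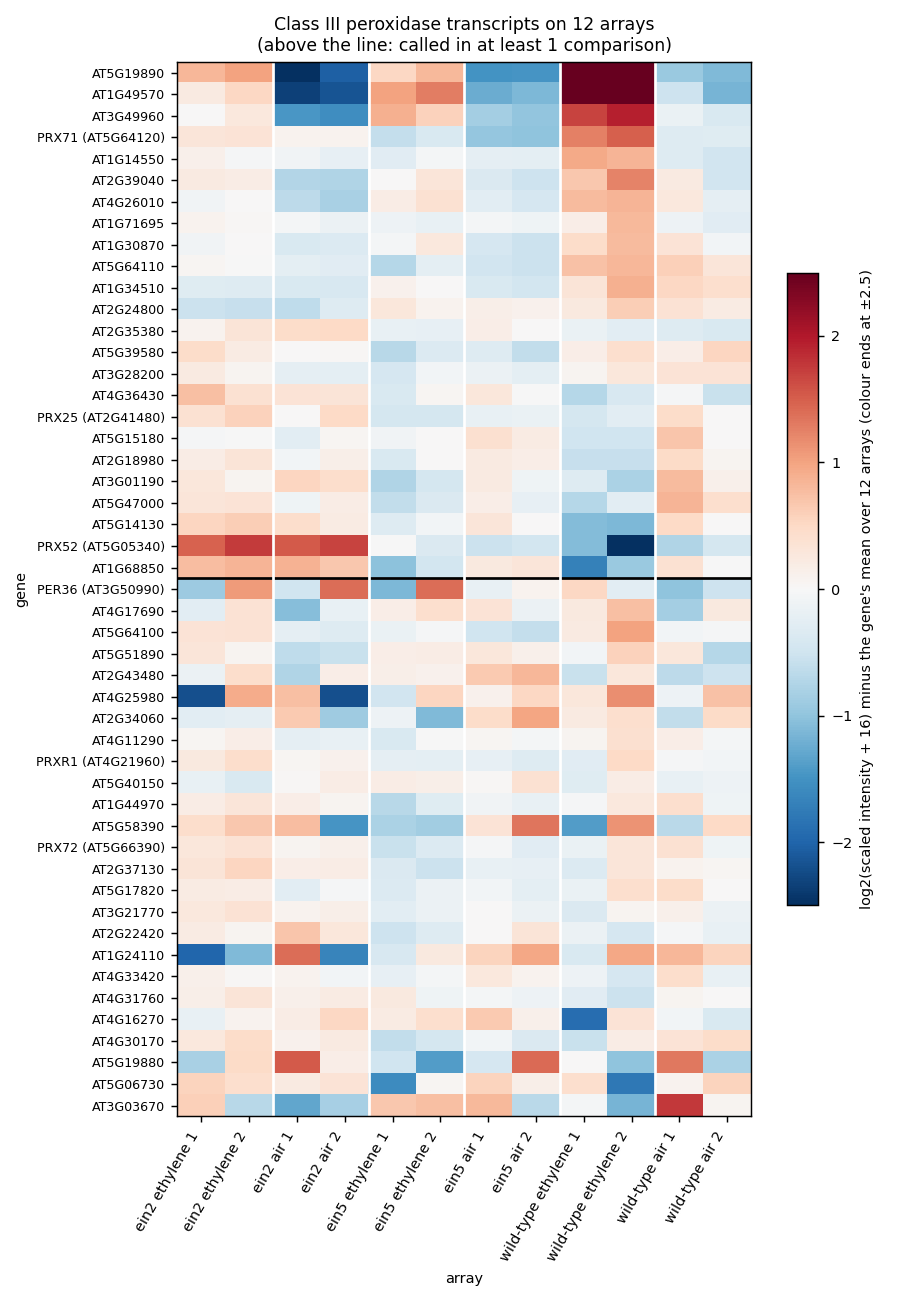
Log2 level of each of the 49 peroxidase genes (rows) on each of the 12 arrays (columns), minus the mean of that gene over all arrays, with the colour ending at ±2.5. Genes above the black line were called in at least 1 comparison; AT5G19890, AT1G49570 and AT3G49960 are higher on the ethylene arrays than on the air arrays of each genotype, and PRX52 is high on all 4 ein2 arrays.

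The first comparison asked which peroxidase transcripts changed in wild-type seedlings after ethylene. There 8 genes rose and 6 fell, so that 28.6% of the 49 were called, against 10.1% of all probe sets. Split by direction, 3.82% of the whole table was called higher and 6.28% lower. The median change of the 49 was -0.06 on the log2 scale, beside 0.02 for all probe sets. Its sign turned with single wild-type arrays: it was 0.27 when wild-type ethylene 1 was left out and 0.08 when wild-type air 1 was, but -0.19 in the absence of wild-type ethylene 2. Of the 14 called, 10 changed by more than 2-fold. Probe sets with a mean level of at least 200 were called more often throughout, 34.1% of 41 peroxidases and 13.1% of 17103 probe sets.

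The largest rise was that of AT5G19890. Its level was 17249 and 24641 in wild-type ethylene, against 1068 and 945 in wild-type air, a ratio of means of 20.8. Both ethylene arrays lay far above both air arrays, and the change was 4.34 ± 0.22, adjusted p = 2.45e-08. AT1G49570 had levels of 12197 and 14887 in wild-type ethylene, against 1380.4 and 877 in wild-type air. This change of 3.59 ± 0.20 (adjusted p = 5.78e-08) was again without overlap. AT3G49960 stood at 5012 and 6055 in wild-type ethylene, against 1391 and 1195 in wild-type air, a change of 2.08 ± 0.17, adjusted p = 2.57e-06.

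PRX71 (AT5G64120), a peroxidase linked to lignin and to the stiffening of the wall, was bright in every group. It gave 15724 and 18554 in wild-type ethylene, against 5246 and 5339.6 in wild-type air, with a change of 1.69 ± 0.11 (adjusted p = 4.76e-07). The 2 air arrays differed by far less than the distance to the ethylene arrays.

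The remaining 4 rises were smaller. AT1G14550 had 1361 and 1267 in wild-type ethylene, against 557 and 499 in wild-type air (1.29 ± 0.21, adjusted p = 0.00102). AT2G39040 had 5149.8 and 7559 in wild-type ethylene, against 3773 and 2282 in wild-type air (1.08 ± 0.21, adjusted p = 0.00377). The groups did not overlap for either gene, although the AT2G39040 arrays spread widely within each group. AT4G26010, which is expressed in root hairs, had 10790.3 and 11214 in wild-type ethylene, against 7485 and 5317 in wild-type air (0.80 ± 0.15, adjusted p = 0.00256). AT1G71695 had 14323 and 22167 in wild-type ethylene, against 11674 and 10479 in wild-type air (0.69 ± 0.16, adjusted p = 0.0135). For AT1G71695 much of the difference came from 1 array: the change was 0.37 without wild-type ethylene 2 (adjusted p = 0.0621), and the call was also lost without wild-type air 2 (0.61, adjusted p = 0.089).

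**Figure D2:**
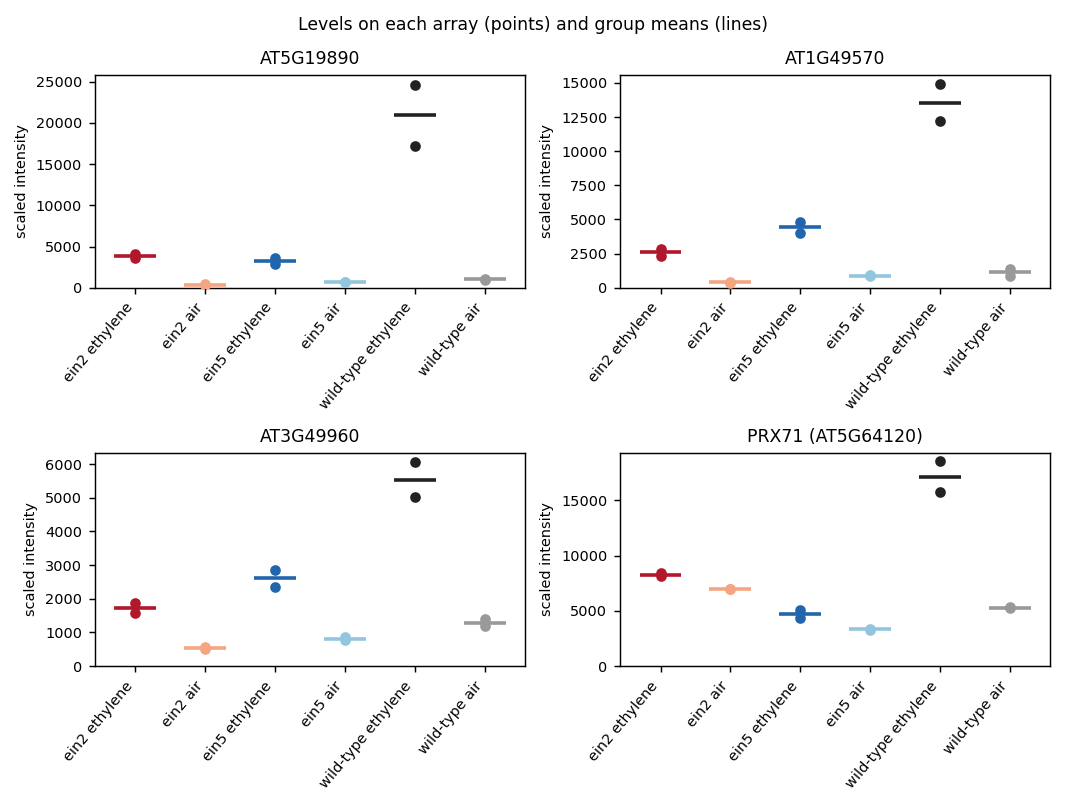
Scaled intensity of 4 genes that rose in wild-type ethylene, for each array (points) with the group mean (line), by group from ein2 ethylene at the left to wild-type air at the right; each panel has its own linear axis from 0. The wild-type ethylene arrays of AT5G19890 (17249 and 24641) and of the other genes lie above every other array.

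The falls were smaller than the largest rises. AT1G68850 had 426 and 731 in wild-type ethylene, against 1836 and 1402 in wild-type air, the largest of these falls at -1.49 ± 0.24 (adjusted p = 0.000942). AT5G14130 had 638 and 614 in wild-type ethylene, against 1922 and 1368 in wild-type air, a change of -1.35 ± 0.19 (adjusted p = 0.000293). The ethylene arrays of AT5G14130 were nearly equal, and the spread lay in air. AT5G47000 had 875 and 1213 in wild-type ethylene, against 2644 and 1936 in wild-type air, a change of -1.12 ± 0.21 (adjusted p = 0.00279).

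AT2G18980 fell in the same comparison to 6883 and 6802 in wild-type ethylene, against 14333 and 10772 in wild-type air (-0.86 ± 0.15, adjusted p = 0.00216). AT5G15180 had 2463 and 2469 in wild-type ethylene, against 5675 and 3535 in wild-type air (-0.86 ± 0.18, adjusted p = 0.00628). AT3G01190 had 10619.9 and 7672 in wild-type ethylene, against 23245 and 14531 in wild-type air (-1.02 ± 0.21, adjusted p = 0.00564). In all 6 genes wild-type air 1 was the higher air array, and no ethylene array reached the lower one. The calls of AT5G15180 and AT3G01190 rested on single arrays. Without wild-type air 1 their changes were -0.52 (adjusted p = 0.0617) and -0.69 (adjusted p = 0.0701). Without wild-type ethylene 2, AT3G01190 had a change of -0.79 (adjusted p = 0.0559). The number of calls was 20 without wild-type ethylene 1 and 9 with only the 2 wild-type groups fitted, where AT1G71695, AT2G39040, AT4G26010, AT3G01190 and AT5G15180 missed the threshold (adjusted p of 0.0524 to 0.177).

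In ein5, 4 of the 49 peroxidases rose on ethylene and 0 fell, against 1.62% of all probe sets called, 0.774% higher and 0.849% lower. At an unadjusted p under 0.05 there were 15 genes in all, beside 20 in wild type. The share of all probe sets at this threshold was not counted in any comparison, so such counts cannot show an excess in the family. The 4 were among the 8 that rose in wild type. AT5G19890 had 2933 and 3629 in ein5 ethylene, against 721 and 724 in ein5 air, a change of 2.15 ± 0.22 (adjusted p = 0.000151). AT1G49570 had 4023 and 4839 in ein5 ethylene, against 834 and 900.2 in ein5 air, a change of 2.33 ± 0.20 (adjusted p = 3.77e-05). AT3G49960 had 2868 and 2336 in ein5 ethylene, against 858 and 770.2 in ein5 air, a change of 1.65 ± 0.17 (adjusted p = 0.000151). In none of these 3 genes did the ethylene and air arrays overlap.

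PRX71 had 4370.4 and 5097 in ein5 ethylene, against 3356 and 3301 in ein5 air. Its change in ein5 of 0.50 ± 0.11 (adjusted p = 0.0418) lay near the threshold and was lost without any one of the 8 mutant arrays, with adjusted p between 0.0768 and 0.304. The number of calls in ein5 also moved with the wild-type arrays, which enter through the shared estimate of the spread. It was 7 without wild-type air 1 or 2, 9 without wild-type ethylene 1 and 8 without wild-type ethylene 2. The other 4 genes that rose in wild type had changes in ein5 of 0.62 ± 0.15 for AT4G26010 (adjusted p = 0.0505), 0.59 ± 0.21 for AT2G39040, 0.08 ± 0.21 for AT1G14550 and -0.08 ± 0.16 for AT1G71695. All 6 genes that fell in wild type had a negative change in ein5, from -1.01 ± 0.24 for AT1G68850 (adjusted p = 0.0518) to -0.35 ± 0.18 for AT5G15180, and none was called.

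In ein2, 3 of the 49 rose on ethylene and 0 fell, against 0.514% of all probe sets called, 0.475% higher and 0.0396% lower. At an unadjusted p under 0.05 there were 8 genes in all, again without a share of all probe sets at this threshold. AT5G19890 had 3663 and 4146 in ein2 ethylene, against 291 and 488 in ein2 air, a change of 3.31 ± 0.22 (adjusted p = 2.56e-06). AT1G49570 had 2339 and 2868 in ein2 ethylene, against 380.5 and 436 in ein2 air, a change of 2.62 ± 0.20 (adjusted p = 1.08e-05). AT3G49960 had 1566 and 1865 in ein2 ethylene, against 559 and 516 in ein2 air, a change of 1.64 ± 0.17 (adjusted p = 0.000183). These 3 genes were thus higher on ethylene in all 3 genotypes, without overlap between gases in any of them. The ratio of means was 10.0 for AT5G19890 in ein2, 4.54 in ein5 and 20.8 in wild type. In ein2, air 1 carries labels of another age and temperature than the ethylene arrays, and the part of these in the ein2 changes was not tested. Alternative fits, some without that array, gave ein2 changes of 2.96 to 3.67 for AT5G19890. They gave 2.48 to 2.77 for AT1G49570 and 1.52 to 1.77 for AT3G49960.

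No other peroxidase was called in ein2. PRX71 had 8159 and 8419.6 in ein2 ethylene, against 7012 and 7020.0 in ein2 air, a change of 0.24 ± 0.11 (adjusted p = 0.517). Its groups did not overlap, yet the difference was small beside that in wild type. AT2G39040 had 3744 and 3629 in ein2 ethylene, against 1922 and 1899.8 in ein2 air, and its change of 0.94 ± 0.21 missed the threshold (adjusted p = 0.0794). AT4G26010 had a change of 0.69 ± 0.15 in ein2 (adjusted p = 0.0606). Of the 49 genes, 38 had a positive change in ein2 and the median was 0.22, beside 52.1% of all probe sets with a positive change and a median of 0.01. The median of the 49 was 0.12 after quantile normalization, against -0.02 for all probe sets. The count of calls in ein2 was 5 without wild-type air 1, wild-type air 2 or wild-type ethylene 1, and 6 without wild-type ethylene 2.

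**Figure D3:**
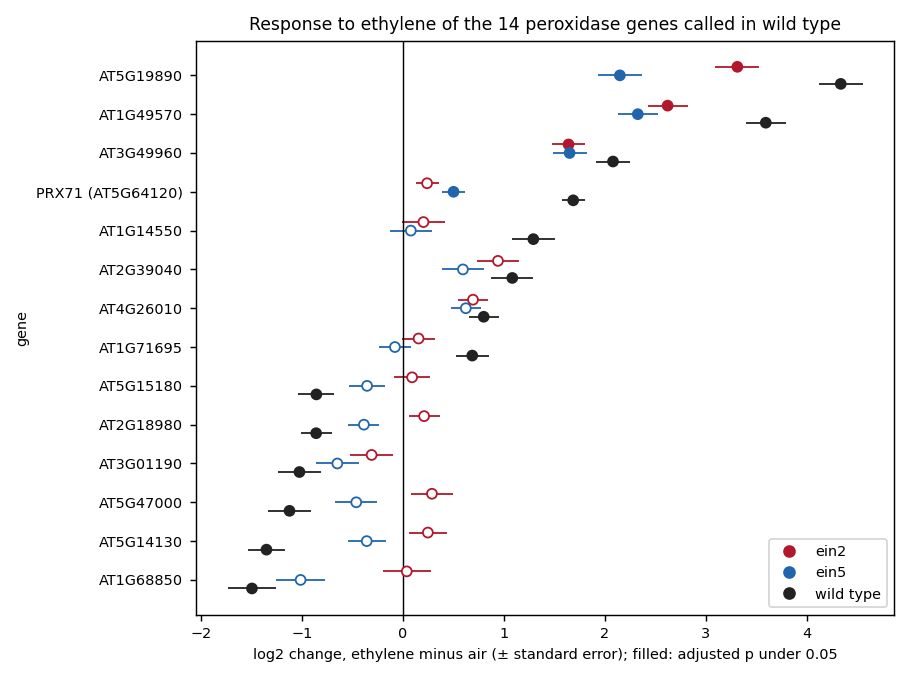
Log2 change of ethylene over air, with its standard error, for the 14 genes called in wild type, in ein2 (red), ein5 (blue) and wild type (black); filled points were called. AT5G19890, AT1G49570 and AT3G49960 are filled in all 3 genotypes, and the 6 genes that fell in wild type lie between -0.31 and 0.29 in ein2.

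Whether the response differed between genotypes was tested directly as the difference of the 2 log2 changes. For ein5 against wild type, 2 of the 49 genes had a lower response in ein5 and 0 a higher one, beside 0.532% of all probe sets called, 0.431% higher and 0.101% lower, and 10 of the 49 had an unadjusted p under 0.05. The 2 called were AT5G19890, with a difference of -2.19 ± 0.31 (adjusted p = 0.00527), and PRX71, with -1.19 ± 0.16 (adjusted p = 0.00441). AT5G19890 thus rose in ein5, but by a smaller factor. For AT1G49570 the difference was -1.27 ± 0.28 (adjusted p = 0.0668), with an interval of -1.87 to -0.67, and for AT3G49960 it was -0.43 ± 0.24, with an interval of -0.94 to 0.08 (95% intervals). The count was 5 without wild-type ethylene 1, and 0 when the moderated variances took no account of intensity.

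For ein2 against wild type, the response was higher in ein2 for 4 genes and lower for 1, beside 3.75% of all probe sets called, 2.80% higher and 0.950% lower. PRX71 was the lower one, at -1.45 ± 0.16 (adjusted p = 0.000234). The 4 others were genes that fell in wild type and had a change above 0 in ein2, where none was called. AT5G14130 had a difference of 1.60 ± 0.27 (adjusted p = 0.00382), AT1G68850 of 1.53 ± 0.34 (adjusted p = 0.0222), AT5G47000 of 1.41 ± 0.29 (adjusted p = 0.0163) and AT2G18980 of 1.07 ± 0.22 (adjusted p = 0.014). For AT5G15180 the difference was 0.95 ± 0.25 (adjusted p = 0.054) and for AT3G01190 it was 0.71 ± 0.30 (adjusted p = 0.231).

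The levels behind these differences show where ein2 stood. AT5G14130 had 1979 and 2092 in ein2 ethylene, against 1861 and 1574 in ein2 air, and all 4 lay above both wild-type ethylene arrays. AT1G68850 had 2391 and 2547 in ein2 ethylene, against 2567 and 2248 in ein2 air, overlapping between the gases. AT5G47000 had 1808 and 1852 in ein2 ethylene, against 1345 and 1662 in ein2 air. AT2G18980 had 11588 and 12813 in ein2 ethylene, against 9781 and 11336 in ein2 air. Calls of AT5G14130 and PRX71 held without any 1 array. That of AT1G68850 was lost without any one of the 4 ein2 arrays, wild-type air 1 or wild-type ethylene 1 (adjusted p between 0.0515 and 0.107). Those of AT2G18980 and AT5G47000 were lost without ein2 air 1 (adjusted p = 0.0815 and 0.0851), ein2 ethylene 2 (0.0835 and 0.0741) or wild-type air 1 (0.0535 and 0.068), and that of AT5G47000 also without ein2 ethylene 1 (0.0603). The count of called genes was 2 without ein2 ethylene 2, 3 without ein2 air 1, ein2 ethylene 1 or wild-type air 1, and 8 without wild-type air 2.

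**Figure D4:**
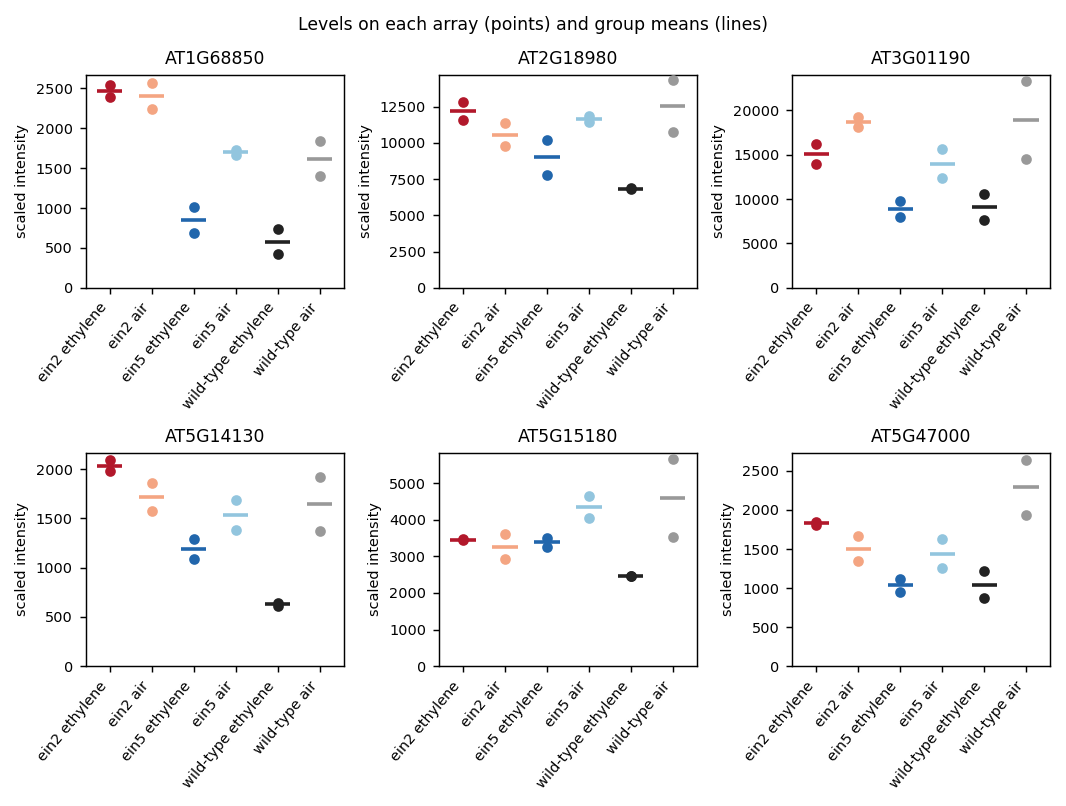
Scaled intensity of the 6 genes that fell in wild-type ethylene, for each array (points) with the group mean (line), by group; each panel has its own linear axis from 0. In AT5G14130 both wild-type ethylene arrays (638 and 614) lie below all other arrays, while both ein2 groups lie at or above 1574.

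In air, 0 peroxidases were higher and 7 were lower in ein5 than in wild type, beside 5.80% of all probe sets called, 2.04% higher and 3.77% lower. In all, 14 of the 49 had an unadjusted p under 0.05, with the share of all probe sets at this threshold not counted. The 7 called were PRX71, AT1G34510, AT5G39580, AT5G64110, AT3G28200, AT1G30870 and AT3G49960. PRX71 had 3356 and 3301 in ein5 air, against 5246 and 5339.6 in wild-type air (-0.67 ± 0.11, adjusted p = 0.00643). AT1G34510, a peroxidase of root hairs, had 2162 and 2034 in ein5 air, against 4004 and 3744 in wild-type air (-0.88 ± 0.15, adjusted p = 0.00733). AT5G39580, which acts in root hair growth, had 5602 and 4574 in ein5 air, against 7853 and 10159 in wild-type air (-0.82 ± 0.16, adjusted p = 0.0131). The groups did not overlap in these 3 genes. AT5G64110, the neighbour of PRX71, had 476 and 454 in ein5 air, against 1015 and 827 in wild-type air (-0.95 ± 0.23, adjusted p = 0.0295).

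The remaining 3 of the 7 lay closer to the threshold. AT3G28200 had 4686 and 4378 in ein5 air, against 6532 and 6565 in wild-type air (-0.53 ± 0.13, adjusted p = 0.0294). AT1G30870, a root hair peroxidase, had 5354 and 4905 in ein5 air, against 9091 and 6790.3 in wild-type air (-0.62 ± 0.16, adjusted p = 0.0351). AT3G49960 had 858 and 770.2 in ein5 air, against 1391 and 1195 in wild-type air (-0.65 ± 0.17, adjusted p = 0.0369). All 7 calls were lost without ein5 air 2, where the adjusted p was 0.104 to 0.285 with changes of -0.48 to -0.92, and the count was 3 without ein5 air 1 and 4 without wild-type air 1, wild-type air 2 or either ein2 air array. Without wild-type air 1, AT1G30870 had a change of -0.40 (adjusted p = 0.201). AT5G39580 was also lost without wild-type air 2 (adjusted p = 0.0859), and AT5G64110 without ein5 air 1 or either wild-type air array (0.0598 to 0.141). AT3G28200, AT1G30870 and AT3G49960 were lost without ein5 air 1, wild-type air 1 or either ein2 air array, AT3G28200 and AT3G49960 without wild-type air 2, and AT1G30870 and AT3G49960 without either ein2 ethylene array (0.0513 to 0.201 in all). The direction of these 7 was the same under every one of these omissions, and all 7 also missed the threshold when only the 2 compared groups were fitted (adjusted p of 0.0582 to 0.128).

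In air, 2 peroxidases were higher and 6 lower in ein2 than in wild type, beside 2.71% of all probe sets called, 1.24% higher and 1.47% lower. PRX52 (AT5G05340), which is known for its part in lignin synthesis in the stem, was the largest rise. It had 949 and 1062 in ein2 air, against 182 and 230.4 in wild-type air, a change of 2.21 ± 0.46 (adjusted p = 0.02). The standard error was wide and PRX52 was dim in wild type. The call was lost without either array of ein2 air or wild-type air (adjusted p of 0.0676 to 0.173), with changes of 2.05 to 2.36. AT2G35380 had 1595 and 1645 in ein2 air, against 920.4 and 893 in wild-type air (0.83 ± 0.16, adjusted p = 0.0129).

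The 6 lower genes in ein2 air included the 3 that rose on ethylene in every genotype. AT1G49570 had 380.5 and 436 in ein2 air, against 1380.4 and 877 in wild-type air (-1.40 ± 0.20, adjusted p = 0.00168). AT3G49960 had 559 and 516 in ein2 air, against 1391 and 1195 in wild-type air (-1.24 ± 0.17, adjusted p = 0.00113). AT5G19890 had 291 and 488 in ein2 air, against 1068 and 945 in wild-type air (-1.37 ± 0.22, adjusted p = 0.00343). All 3 were below wild type on both arrays. The call of AT5G19890 was lost without ein2 air 1, at -1.02 (adjusted p = 0.052). The others were AT1G34510, with 2144 and 2121 in ein2 air (-0.86 ± 0.15, adjusted p = 0.00782), AT4G26010, with 3988 and 3546 in ein2 air (-0.74 ± 0.15, adjusted p = 0.0136), and AT3G28200, with 4401 and 4376 in ein2 air (-0.58 ± 0.13, adjusted p = 0.0274).

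The array ein2 air 1 is the one whose labels give another age and temperature. Whether age or temperature changed its levels was not tested. Over the peroxidases this array differed from ein2 air 2 by a median size of 0.153 on the log2 scale. It was thus about as far from its replicate as arrays were in ein2 ethylene (0.158) and ein5 air (0.159). Without it, 2 of the 8 calls between ein2 and wild type in air stood, and without ein2 air 2 there were 3. Lost without ein2 air 1 were those of AT1G34510 (-0.86, adjusted p = 0.0732), AT4G26010 (-0.83, adjusted p = 0.0658), AT2G35380 (0.85, adjusted p = 0.0947), AT3G28200 (-0.58, adjusted p = 0.16), and those of PRX52 and AT5G19890 given above. Losses without ein2 air 2, by adjusted p, were 0.0827 for AT1G34510, 0.131 for AT2G35380, 0.189 for AT3G28200 and 0.172 for AT4G26010. Without wild-type air 1 there were 5 calls, with AT3G28200 (0.078) and AT4G26010 (0.0849) among the losses. Without wild-type air 2, AT2G35380 (0.0655) and AT3G28200 (0.108) were lost. AT1G34510, AT3G28200 and AT3G49960 were the 3 genes called lower in both mutants in air, in comparisons that share the wild-type air arrays.

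In ethylene, 2 peroxidases were higher and 9 lower in ein5 than in wild type, beside 5.08% of all probe sets called, 2.15% higher and 2.93% lower. All 3 of the large wild-type rises were lower: AT5G19890 by -2.65 ± 0.22 (adjusted p = 1.73e-05), AT1G49570 by -1.61 ± 0.20 (adjusted p = 0.000389) and AT3G49960 by -1.08 ± 0.17 (adjusted p = 0.00218). PRX71 had 4370.4 and 5097 in ein5 ethylene, against 15724 and 18554 in wild-type ethylene (-1.85 ± 0.11, adjusted p = 1.39e-06). The ein5 arrays in ethylene were thus below even the wild-type arrays in air for this gene. These 4 calls stood without any 1 array.

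The smaller differences of ein5 from wild type in ethylene rested more on single arrays. AT5G64110 had 399.7 and 557 in ein5 ethylene, against 1114 and 1202 in wild-type ethylene (-1.27 ± 0.23, adjusted p = 0.00622). AT1G14550 had 576 and 679 in ein5 ethylene, against 1361 and 1267 in wild-type ethylene (-1.05 ± 0.21, adjusted p = 0.0103). AT5G39580 had 4328 and 5565 in ein5 ethylene, against 7846 and 9344 in wild-type ethylene (-0.80 ± 0.16, adjusted p = 0.0113). None of these groups overlapped. Without ein5 ethylene 1, these 3 had adjusted p of 0.0862, 0.11 and 0.145, and without wild-type ethylene 2 AT5G39580 had 0.0911. AT5G14130 was higher, with 1086 and 1293 in ein5 ethylene, against 638 and 614 in wild-type ethylene (0.90 ± 0.19, adjusted p = 0.0129), and its call was lost without ein5 ethylene 2 (0.135) or wild-type ethylene 2 (0.0679).

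Those nearest the threshold were AT1G71695 (-0.65 ± 0.16, adjusted p = 0.032), PRX52 (1.78 ± 0.46, adjusted p = 0.0408) and AT2G39040 (-0.80 ± 0.21, adjusted p = 0.0415). PRX52 had 314 and 244 in ein5 ethylene, against 142 and 30.1 in wild-type ethylene, all of them dim. Without wild-type ethylene 2 its change was 0.89 (adjusted p = 0.237), that of AT1G71695 was -0.34 (adjusted p = 0.157) and that of AT2G39040 was -0.53 (adjusted p = 0.306). All 3 were also lost without any one of the 4 ein2 arrays or either ein5 ethylene array, and PRX52 and AT2G39040 without either ein5 air array. Over these omissions the adjusted p was 0.0589 to 0.237 for PRX52, 0.0589 to 0.306 for AT2G39040 and 0.0554 to 0.184 for AT1G71695. The count was 5 without ein5 ethylene 1, 7 without ein5 ethylene 2 or wild-type ethylene 2, and 22 without wild-type ethylene 1.

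In ethylene, 8 peroxidases were higher and 10 lower in ein2 than in wild type, or 36.7% of the 49, beside 9.87% of all probe sets called, 6.40% higher and 3.47% lower. Among the lower genes were AT5G19890 (-2.40 ± 0.22, adjusted p = 5.43e-06), AT1G49570 (-2.37 ± 0.20, adjusted p = 2.65e-06), AT3G49960 (-1.68 ± 0.17, adjusted p = 1.36e-05) and PRX71 (-1.04 ± 0.11, adjusted p = 3.42e-05). AT5G19890, AT1G49570 and AT3G49960 were thus lower in ein2 than in wild type in both gases, whereas PRX71 was not lower in ein2 air, at 0.41 ± 0.11 (adjusted p = 0.0822).

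The 2 root hair genes AT1G34510 (-0.92 ± 0.15, adjusted p = 0.00122) and AT4G26010 (-0.85 ± 0.15, adjusted p = 0.00162) were also lower in ein2 ethylene. AT1G34510 had 2282 and 2236 in ein2 ethylene, against 3531 and 5228 in wild-type ethylene. AT2G24800 had 648 and 629 in ein2 ethylene, against 1133 and 1469.5 in wild-type ethylene (-0.997 ± 0.20, adjusted p = 0.00429). These 3 differences were without overlap between groups. The smaller ones were those of AT1G14550 (-0.84 ± 0.21, adjusted p = 0.0191), AT2G39040 (-0.76 ± 0.21, adjusted p = 0.0342) and AT1G30870 (-0.66 ± 0.16, adjusted p = 0.0133). Calls of these 3 were lost without ein2 ethylene 1 (adjusted p = 0.0624, 0.128 and 0.104) or ein2 ethylene 2 (0.137, 0.182 and 0.0667). Without wild-type ethylene 2, AT2G39040 had a change of -0.48 (adjusted p = 0.24) and AT1G30870 of -0.50 (adjusted p = 0.0922). AT2G39040 was also lost without ein2 air 1 or 2 (0.0535 and 0.0534), and AT1G14550 without wild-type ethylene 1 (0.0729).

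The highest of the 8 higher genes in ein2 ethylene was PRX52, with 912 and 1100.0 in ein2 ethylene, against 142 and 30.1 in wild-type ethylene (3.58 ± 0.46, adjusted p = 0.000158). PRX52 was near 1000 on all 4 ein2 arrays, 912 to 1100.0, and at most 314 on the other 8. AT1G68850 followed with 2391 and 2547 in ein2 ethylene, against 426 and 731 in wild-type ethylene (2.11 ± 0.24, adjusted p = 4.59e-05), then AT5G14130 (1.68 ± 0.19, adjusted p = 4.04e-05). AT4G36430 had 3225 and 2488 in ein2 ethylene, against 1154 and 1446 in wild-type ethylene (1.12 ± 0.21, adjusted p = 0.00257), a gene called in no other comparison. AT2G18980 was higher by 0.83 ± 0.15 (adjusted p = 0.00267).

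PRX25 (AT2G41480), which acts in lignin formation, had 1307 and 1509 in ein2 ethylene, against 736 and 833 in wild-type ethylene (0.83 ± 0.21, adjusted p = 0.0223). AT5G47000 was higher by 0.82 ± 0.21 (adjusted p = 0.0221) and AT3G01190 by 0.74 ± 0.21 (adjusted p = 0.0392). These last 3 lost the call without ein2 ethylene 1 (adjusted p = 0.0627, 0.0983 and 0.217) or ein2 ethylene 2 (0.182, 0.133 and 0.107). PRX25 and AT5G47000 also lost it without wild-type ethylene 1 (0.0932 and 0.142). AT3G01190 also lost it without wild-type ethylene 2 (0.219), ein2 air 1 (0.0604) or ein2 air 2 (0.0605). The count of calls in this comparison fell to 12 without ein2 ethylene 1 or 2.

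**Figure D5:**
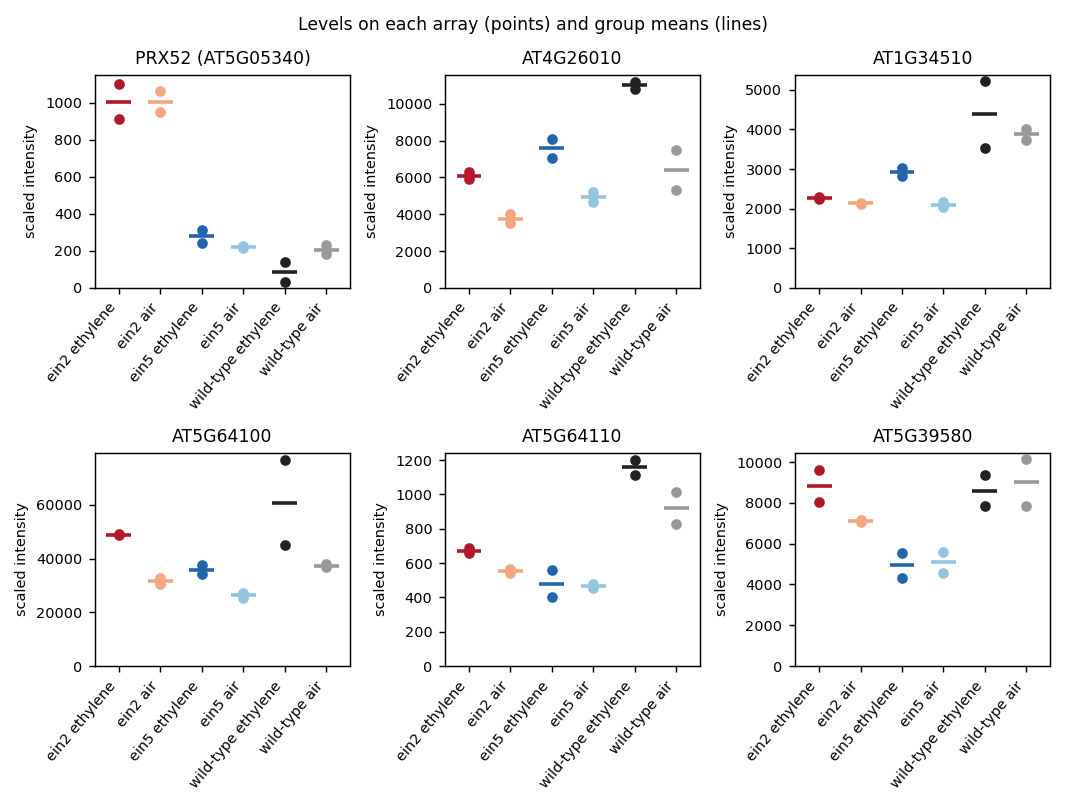
Scaled intensity of PRX52, AT5G64110 and 4 root hair peroxidases, for each array (points) with the group mean (line), by group; each panel has its own linear axis from 0. PRX52 lies between 912 and 1100.0 on the ein2 arrays and at most at 314 elsewhere, and AT5G39580 is lowest in both ein5 groups.

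By group means, AT1G49570 and AT3G49960 ran from wild-type ethylene through ein5 ethylene, ein2 ethylene, wild-type air and ein5 air to ein2 air. Neighbouring groups in this order did not overlap, except wild-type air and ein5 air in AT1G49570. In AT5G19890, ein2 ethylene stood above ein5 ethylene, at 3904 ± 342 against 3281 ± 492, and the rest of the order was that of these 2 genes. AT2G39040 had the order of AT5G19890, but with overlap between 3 pairs of neighbouring groups. PRX71 had another order: wild-type ethylene, ein2 ethylene, ein2 air, wild-type air, ein5 ethylene, ein5 air, without overlap between neighbours. In PRX71 both ein2 groups thus stood above wild-type air and both ein5 groups below it.

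Peroxidases linked to root hairs were measured for 5 of 7 listed genes. On ethylene in wild type 1 of the 5 rose, AT4G26010, beside 3.82% of all probe sets called higher, and the median change was 0.49. The median was 0.47 in ein5 and 0.33 in ein2, with 0 of the 5 called in either. Medians of the response differences from wild type were 0.02 for ein5 and -0.07 for ein2, again with 0 called. In air, 3 of the 5 were lower in ein5 than in wild type (AT1G30870, AT1G34510 and AT5G39580) and 2 in ein2 (AT1G34510 and AT4G26010), with medians of -0.62 and -0.50. Of all probe sets, 3.77% and 1.47% were called lower in these comparisons. All 3 calls in ein5 air were lost without ein5 air 2 (adjusted p = 0.284, 0.112 and 0.195), and both in ein2 air without either ein2 air array (0.0658 to 0.172). In ethylene 1 was lower in ein5 (AT5G39580) and 3 were lower in ein2 (AT1G30870, AT1G34510 and AT4G26010), with medians of -0.56 and -0.66, beside 2.93% and 3.47% of all probe sets called lower. None was called higher in either mutant. AT5G39580 and AT1G34510 showed different patterns among the groups. AT5G39580 was at 8817 ± 1105 in ein2 ethylene, 4946 ± 875 in ein5 ethylene and 8595 ± 1059 in wild-type ethylene, the lowest in ein5. AT1G34510 had means of 2259 ± 32.7 in ein2 ethylene and 2919 ± 141 in ein5 ethylene, both below the 4379.5 ± 1201 of wild-type ethylene.

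AT5G64100, the last of the 5, was a bright probe set and was called nowhere. It had 44876 and 76778 in wild-type ethylene, against 36802 and 37805 in wild-type air (0.65 ± 0.20, adjusted p = 0.0581). The ethylene arrays were both higher, but far apart.

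Of 11 other markers of root hair cells, 2 were measured, the expansin genes EXPA7 and EXPA18, which loosen the wall of growing hairs. Their summed level was 3974 to 4225 in ein2 ethylene, 2578 to 3126 in ein2 air, 4057 to 4317 in ein5 ethylene, 3026 to 3102 in ein5 air, 5729 to 7273 in wild-type ethylene and 3972 to 5418 in wild-type air. EXPA7 rose in wild-type ethylene (0.81 ± 0.22, adjusted p = 0.0304). On ethylene it was called in neither mutant, though its mean was also higher there. It was 1271 in ein2 ethylene against 739 in ein2 air, and 1367 in ein5 ethylene against 917 in ein5 air. The median change of the 2 markers on ethylene was 0.61 in ein2, 0.48 in ein5 and 0.56 in wild type. EXPA18 was lower than in wild type in ein5 air (-0.63 ± 0.16, adjusted p = 0.0353) and ein2 air (-0.66 ± 0.16, adjusted p = 0.0433). In ethylene both were lower in ein2 than in wild type, EXPA7 by -0.85 ± 0.22 (adjusted p = 0.0241) and EXPA18 by -0.55 ± 0.16 (adjusted p = 0.0424). The part of root hair number in the results on root hair peroxidases was not tested.

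Peroxidases linked to lignin or the Casparian strip were measured for 7 of 9 listed genes. PRX71 was the 1 gene of the list that rose in wild type, and the 1 that rose in ein5. Of all probe sets, 3.82% and 0.774% were called higher in these comparisons. In ein2 ethylene against wild-type ethylene 2 were higher (PRX52 and PRX25) and 1 lower (PRX71), beside 6.40% and 3.47% of all probe sets. In ein5 ethylene 1 was higher (PRX52) and 1 lower (PRX71), beside 2.15% and 2.93%. In air PRX71 was lower in ein5 and PRX52 higher in ein2, beside 3.77% and 1.24%. A lower response than in wild type was called for PRX71 in ein5 and in ein2, beside 0.101% and 0.950%. The 4 remaining genes, PRX72, AT5G51890, AT4G33420 and AT2G22420, were called in no comparison. PRX72 (AT5G66390), which acts in lignification of the stem, had 18939 and 20018 in ein2 ethylene, 10638 and 12314 in ein5 ethylene, and 13867 and 19319 in wild-type ethylene. Its change on ethylene in wild type was -0.07 ± 0.18, with a 95% interval of -0.45 to 0.32. The called members of the list went in different directions.

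Both peroxidases linked to the anther tapetum, AT1G44970 and AT4G16270, were called in no comparison. AT1G44970 was bright in these seedlings, with 5376 and 6656 in wild-type ethylene, against 7359 and 5101 in wild-type air. AT4G16270 lay between 40.9 and 317 on the 12 arrays.

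Peroxidase genes that lie close together on a chromosome were measured for 7 of 13 listed. AT5G19890 has AT5G19880 as its direct neighbour, and that gene lay between 6.07 and 154 on all arrays, dim in every group. AT5G64100, AT5G64110 and PRX71 form a run of 3 with 0 genes between them. In wild type on ethylene their changes were 0.65 ± 0.20, 0.33 ± 0.23 and 1.69 ± 0.11, and only that of PRX71 was called. In ein5 against wild type in air all 3 changes were negative, -0.51 ± 0.20, -0.95 ± 0.23 and -0.67 ± 0.11, with AT5G64100 not called (adjusted p = 0.162). In ethylene they were -0.71 ± 0.20, -1.27 ± 0.23 and -1.85 ± 0.11, with AT5G64100 again not called (adjusted p = 0.0618). Over the 7 genes, 4 were called lower in ein5 ethylene than in wild-type ethylene, beside 2.93% of all probe sets, with a median of -1.05. The 7 include AT1G14550, 1 of these 4, and AT5G06730, whose neighbours AT1G14540 and AT5G06720 were not measured. Called lower against wild type were also 2 in ein5 air, 1 in ein2 air and 3 in ein2 ethylene, beside 3.77%, 1.47% and 3.47%. AT4G25980 and AT4G26010, which are not counted among the 7, have 2 genes between them, and AT4G25980 was dim, at 16.8 to 321.

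The brightest probe sets of the family were those of PRXR1 (AT4G21960), AT2G37130, AT5G64100, AT4G30170 and AT3G21770. None was called in any of the 9 comparisons. PRXR1 had 71542 and 82023 in ein2 ethylene, 62287 and 64663 in ein2 air, 51710.4 and 51153 in ein5 ethylene, 52245 and 48173 in ein5 air, 49706 and 84935 in wild-type ethylene, and 59022 and 57693 in wild-type air. The 2 wild-type ethylene arrays were further apart than any pair of group means. AT2G37130 had 68006 and 79784 in ein2 ethylene, 42363 and 37637 in ein5 ethylene, and 42947 and 67749.9 in wild-type ethylene. Its difference of ein5 from wild type in ethylene was -0.43 ± 0.20 (adjusted p = 0.271), with an interval of -0.87 to 0.01. AT4G30170 had 16388 and 27341 in wild-type ethylene, against 30761 and 33375 in wild-type air (-0.60 ± 0.20, adjusted p = 0.078). AT3G21770 changed by -0.12 ± 0.16 in wild type (adjusted p = 0.726).

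Of the 25 genes never called, 8 had a mean level under 200: AT1G24110, AT3G03670, PER36 (AT3G50990), AT4G17690, AT4G25980, AT5G06730, AT5G19880 and AT5G58390. PER36, a peroxidase of the seed coat mucilage, lay between 7.33 and 119. The other 17 were brighter, and their changes on ethylene in wild type ran from -0.60 to 0.65 with a median of -0.07. The lowest adjusted p among them in that comparison was the 0.0581 of AT5G64100.

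Among enzymes that work beside the class III peroxidases, few were measured on single-gene probe sets. NADPH oxidases release the superoxide from which hydrogen peroxide is formed, and 3 of 10 were measured. AT4G25090 of these fell on ethylene in wild type (-0.95 ± 0.21, adjusted p = 0.00929) and was lower in ein5 than in wild type in air (-0.92 ± 0.21, adjusted p = 0.0236). Ascorbate peroxidases and catalases remove hydrogen peroxide inside the cell. Of 11 listed, 2 were measured, and the stromal ascorbate peroxidase gene SAPX rose on ethylene in wild type (0.53 ± 0.12, adjusted p = 0.0104). Superoxide dismutases, which turn superoxide into hydrogen peroxide, were measured for 0 of 7.

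Enzymes of monolignol synthesis, which make the precursors of lignin, were measured for 2 of 19. HCT was higher in ein2 ethylene than in wild-type ethylene (0.56 ± 0.13, adjusted p = 0.0127), and it fell short of a call on ethylene in wild type (-0.39 ± 0.13, adjusted p = 0.0734). Laccases, which also couple lignin precursors, were measured for 1 of 17, and the extensins and related LRX wall proteins, which peroxidases cross-link, for 3 of 12. Neither list had a call in any of the 9 comparisons. The laccase, LAC16, was dim, at 7.59 to 247 over the 12 arrays, so its missing call shows little. Against wild type in ethylene its uncalled changes were -1.74 in ein5 and 1.51 in ein2. Of 8 endodermis markers 1 was measured, GSO1, which was lower in ein5 than in wild type in air (-0.41 ± 0.11, adjusted p = 0.0464). Of 9 green leaf markers 1 was measured, LHCB4.1, with levels of 17728 to 24982 over all 12 arrays and no call. The 90th percentile of the arrays was 7261 to 8377. Whether the tissue was the mature leaves named in the extraction protocol was not tested. Of 5 seed storage genes 0 were measured.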

How the data were processed

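RNA of 12 samples was measured on 12 single-colour Affymetrix ATH1 arrays. Each probe set has a deposited intensity, linear and above 0. The authors used GeneChip Suite 3.2 and GeneSpring 4.2, per the labels' protocols. The mean after trimming 2% at each end was 2480.3 to 2487 on every array, so the deposited intensities carry a common scaling (method not given in the sources used here). A division by the array median over values above 10 is named in the series text but absent from the deposited values. It was applied here, with a return to the mean of the 12 medians, which multiplied the arrays by 0.949 to 1.07. Before log2, 16 was added, which understates changes of dim probe sets. Between 3.86% and 6.16% of an array's values lay at or under it.

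Genes were named through the platform annotation, with symbols from the RefSeq gene table of TAIR10.1. The annotation used here did not list 8730 probe sets and gave several genes for 503. The deposited table names no genome build, so no coordinates are given.

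Group means were fitted to all 12 arrays with limma 3.58.1 in R 4.3.3, with variances moderated along the mean intensity (6 residual and 7.89 prior degrees of freedom), and the 9 comparisons were tested two-sided. The number of arrays limits the precision: the median standard error over the peroxidases was 0.21 between 2 groups and 0.29 between responses. The fit was tested on simulated data. Sample titles gave the group and the replicate number. Named are all members called in any comparison, the 5 brightest, and the measured members of the gene lists. The members and lists were chosen with earlier results of these data known. Alternatives covered scaling, offset, a filter at a mean of 200, the variance trend, array weights, the groups fitted, the replicate number and each array left out. Averaging several probe sets of a gene was not run, since each measured member had 1.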

Additional observations from a re-analysis of the deposited data

Results flagged for a closer look

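For 6 peroxidase genes the response to ethylene differed between a mutant and wild type by a test of the difference itself (limma, adjusted over all probe sets). The values are differences of log2 changes with their standard error, from 2 arrays per group. Between ein5 and wild type they were -2.19 ± 0.31 for AT5G19890 (adjusted p = 0.00527) and -1.19 ± 0.16 for PRX71, AT5G64120 (adjusted p = 0.00441). Between ein2 and wild type, PRX71 had -1.45 ± 0.16 (adjusted p = 0.000234). The other 4 were genes that fell in wild type: AT5G14130 with 1.60 ± 0.27 (adjusted p = 0.00382), AT2G18980 with 1.07 ± 0.22 (adjusted p = 0.014), AT5G47000 with 1.41 ± 0.29 (adjusted p = 0.0163) and AT1G68850 with 1.53 ± 0.34 (adjusted p = 0.0222). PRX71 was the 1 peroxidase that differed in both mutants, in comparisons that share the wild-type arrays.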

How the results depend on the processing

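Of the 72 calls of a gene in a comparison, 34 stood under all 21 alternatives (9 that keep all arrays and 12 that leave out 1 array), and 0 changed direction. The correlation of replicate differences between groups was -0.04 to 0.07 over 15 pairs of groups, with 0 over 0.1. No strong effect shared by arrays of the same replicate number was thus seen. Whether such arrays were grown or processed together cannot be told from this check, and no label says so. With the replicate number as a block (replicate block), the counts of called peroxidases were 14, 4, 3, 2, 6, 7, 8, 11 and 18 in the order in which the 9 comparisons were described. Counts that moved by more than 1.5 times were as follows. With only the compared groups fitted they were 9 for ethylene in wild type, 7 for ethylene in ein2, 0 for ein5 in air, 3 for ein2 in air and 4 for ein5 in ethylene. Without a variance trend they were 0 for the ein5 response difference, 3 for the ein2 one, 0 for ein5 in air, 2 for ein2 in air and 6 for ein5 in ethylene. For ethylene in ein5, quantile normalization and array weights each gave 8. For ethylene in ein2, the filter on dim probe sets and array weights each gave 5, and the filter gave 8 for the ein2 response difference. The causes were not tested. Leaving out 1 array gave ranges of 14 to 20 for ethylene in wild type, 3 to 9 in ein5 and 3 to 6 in ein2, 2 to 5 and 2 to 8 for the ein5 and ein2 response differences, 0 to 10 and 2 to 10 for ein5 and ein2 in air, and 5 to 22 and 12 to 20 for them in ethylene. Other scalings moved the median change of all probe sets by under 0.1. The median of the 49 peroxidases moved further in places under quantile normalization. It went from 0.13 to 0.01 for ein2 against wild type in ethylene, and from 0.22 to 0.12 for ethylene in ein2. Of the 49 genes, 8 had a mean level under 200, and for these the offset and the low signal limit what a change can show.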
